A study of Mus musculus with 6 samples.

Results

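The genes described here build and clear the autophagosome: the numbered Atg genes with the Ulk kinases, Becn1 and the Wipi proteins, the Atg8-family genes (Map1lc3 and Gabarap), the cargo receptor Sqstm1, the transcription factor Tfeb, the subunits of the vacuolar proton pump (Atp6v0 and Atp6v1), the cathepsins (Cts) and the lysosomal membrane proteins Lamp1 and Lamp2. They were chosen by symbol, and 74 of the 19977 genes of the table were members. The choice used no measured value. By role they were 6 initiation kinase genes, 8 of membrane supply and nucleation, 11 of conjugation, 5 of the Atg8 family, Sqstm1, Tfeb, 13 of the pump's V1 sector, 9 of its V0 sector, 14 cathepsins, 3 placental cathepsins, Lamp1 and Lamp2. The remaining gene, Atp6v1fnb, carries a pump name only as a neighbour of Atp6v1f and was left unclassified.

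RNA was compared between CD4+ T cells of old mice (11 months) and of young mice (6 to 8 weeks), all wild-type C57BL/6. These ages are those of the protocol, while the sample titles code the young age as 1 month. The cells of both groups were sorted from spleen and lymph nodes and then held for 6 hours with antibodies to CD3 and CD28, so every library is from stimulated cells. Each group had 3 libraries. No label says that each library is from another animal, so a p-value here measures the spread between libraries, part of which may be technical.

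Macroautophagy starts when the Ulk1 kinase complex and then the Beclin 1 lipid kinase complex mark a patch of membrane, which grows around its cargo. A ubiquitin-like relay attaches Atg8 proteins to the lipid of that membrane, and the closed vesicle fuses with a lysosome. The vacuolar ATPase acidifies the lysosome, cathepsins digest its content, and Tfeb, when it enters the nucleus, raises transcription of many of these genes through a palindromic E-box. In T cells the pathway is known for its part in memory cell survival and in supplying metabolites after activation.

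Promoter windows from 250 bases before to 50 bases after a listed transcription start (RefSeq, build GRCm38.p6) were found for 60 of the 74 members. A gene can have several listed starts, as 6 of these 60 (10%) and 15.4% of all genes did, and it was counted once if any of its windows held the motif. The E-box core CACGTG, which reads the same on both strands, was in 13 of these 60 (21.7%), against 8.09% of all 27025 genes with a window and 12.2% of the 8510 such genes past the expression filter given below. With 1 more palindromic base on each side, TCACGTGA was in 6 members (10%), against 1.13% of all genes with a window and 2.39% of the expressed ones. With another base on each side, GTCACGTGAC was in 0 members, against 0.37% of all genes with a window. These forms are nested, so each longer one is also counted in the shorter. The 60 members include some below the expression filter, so their shares are not like for like with those of expressed genes. Among members past the filter, 12 had the core and 32 had windows without it. The windows with the 8-base form are shown because they cover the conjugation enzyme Atg3, 3 pump genes and 2 cathepsins; capitals mark the motif, and each runs 5′ to 3′ on the gene's strand.
Atg3: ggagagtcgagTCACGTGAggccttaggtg
Atp6v0d1: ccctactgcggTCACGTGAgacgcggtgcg
Atp6v0e: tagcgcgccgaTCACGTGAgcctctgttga
Atp6v1a: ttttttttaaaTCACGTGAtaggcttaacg
Ctsa: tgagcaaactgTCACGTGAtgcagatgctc
Ctsd: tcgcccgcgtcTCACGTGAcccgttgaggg
In GRCm38.p6 the Atg3 window lies at chr16:45158746-45158775 and the Atp6v0e window at chr17:26676387-26676416, both on the plus strand. The Ctsa window is at chr2:164833749-164833778 on the plus strand. The Atp6v0d1 window is at chr8:105566050-105566079, the Atp6v1a window at chr16:44139373-44139402 and the Ctsd window at chr7:142387908-142387937, all on the minus strand. The start listed for the Ctsa window is 901 bases inside the annotated gene, and that for Atp6v1a 443 bases inside, while the other 4 are at the gene's outer end.

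Expected counts totalled 16932551 to 18708205 per library, and the members held 0.362% to 0.435% of them in old libraries and 0.343% to 0.431% in young libraries. The label was checked against cell type markers. A set of 7 T cell marker genes summed to 3018 to 3708 CPM (counts relative to library size, adjusted by TMM) in old and 2875 to 3320 CPM in young libraries. Markers of other cells were present at lower levels. The 5 NK markers summed to 30.5 to 37.9 CPM in old and 48.0 to 99.8 CPM in young libraries, nearly all of it from Eomes, since the other 4 reached at most 0.656 CPM in any library. The CD8 markers summed to 11.3 to 14.6 CPM in old and 16.6 to 27.5 CPM in young libraries, which also did not overlap. Most of that sum was Cd8b1, at 9.18 to 12.55 CPM in old and 14.56 to 26.05 CPM in young libraries. Cd8a overlapped, at 2.07 to 2.11 CPM in old and 1.44 to 2.37 CPM in young libraries. B cell markers summed to 29.3 to 58.5 CPM in old and 35.3 to 80.9 CPM in young libraries, macrophage and monocyte markers to 16.4 to 21.6 and 18.9 to 28.6 CPM, dendritic cell markers to 27.7 to 35.2 and 17.8 to 24.6 CPM, and neutrophil markers to 4.54 to 25.5 and 31.3 to 67.9 CPM, each time old before young. One young library, young replicate 1, stood apart. Across genes, the Pearson correlation of its log2 CPM was 0.924 and 0.911 with young replicates 2 and 3, and 0.977 between those, so values without it are given beside each result that rests on it.

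Of the 74 members, 57 passed the expression filter of a mean of at least 1 FPKM over the 6 libraries (fragments scaled by transcript length and library total, the scale used here to compare levels between genes). The 17 below it were Atg4c, Ulk4, Wipi1, the pump genes Atp6v0a4, Atp6v0d2, Atp6v0e2, Atp6v1b1, Atp6v1c2, Atp6v1e2 and Atp6v1g3, the cathepsins Ctsf, Ctsg and Ctsk, the placental Ctsj, Ctsm and Ctsr, and Atp6v1fnb. Ctsm and Ctsr had no count in any library. Most of these are the tissue-restricted copies of pump subunits or cathepsins of other cell types.

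Between old and young libraries, edgeR's quasi-likelihood test called 0 of the 57 members at an adjusted p under 0.05, and 92 of all 10509 genes tested (0.875%; 0.742% higher and 0.133% lower in old). At an unadjusted p under 0.05 stood 5 of the 57 members (8.77%), namely Map1lc3a, Ctsb, Lamp2, Atp6v0a1 and Atp6v1g2, against 10.6% of all genes tested. Every old library was above every young library for 5 members (8.77%), which were Ctsb, Ctsz, Lamp2, Atp6v0a1 and Atp6v1g2, against 9.9% of all genes. Every old library was below every young one for 2 members (3.51%), Map1lc3a and Atg101, against 6.54% of all genes. The members' shares were thus near or below those of the whole table. The median log2 difference, old minus young, was -0.10 over 29 autophagy genes, 0.002 over 15 pump genes and -0.09 over 11 cathepsins, with -0.04 over all genes tested. In bulk RNA, fewer cells of a type and less RNA per cell cannot be told apart.

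Leaving out young replicate 1 changed these counts. In the 5 remaining libraries edgeR called 929 genes (8.84%; 5.86% higher and 2.98% lower in old), of which 4 were members (7.02%). Atp6v0a1, Ctsb and Lamp2 were called higher in old libraries and Gabarapl1 lower. DESeq2 on all 6 libraries called 501 genes (4.77%; 3.56% higher and 1.21% lower in old) and also 4 members, namely Atp6v0a1, Ctsb and Atp6v1g2 as higher and Map1lc3a as lower. Atp6v0a1 and Ctsb were in both sets. For Ctse, DESeq2 gave no p-value.

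**Figure D1:**
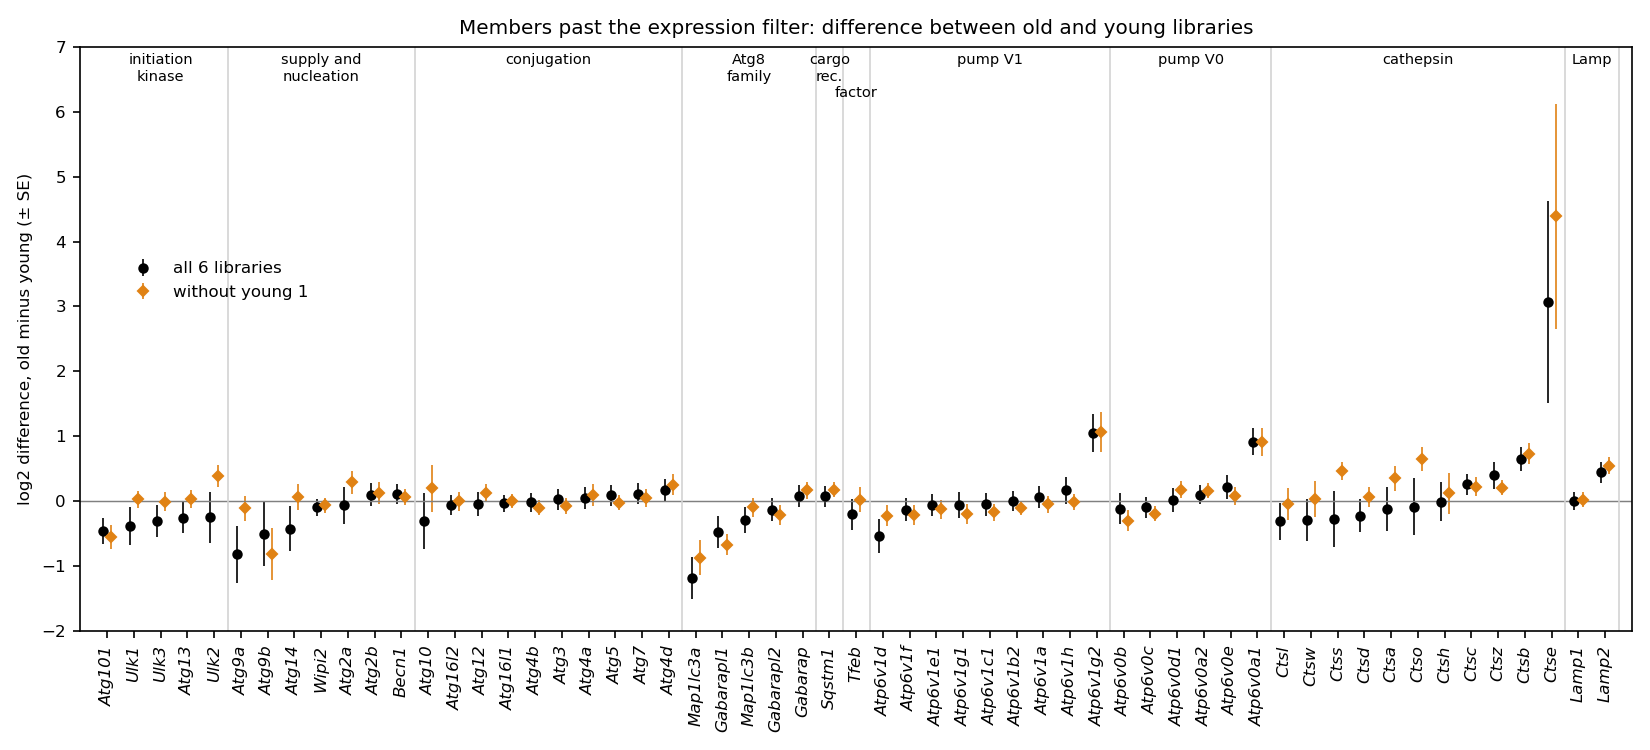
Log2 difference, old minus young, for the 57 members past the filter (vertical axis), grouped by role. Bars are ± SE, derived from edgeR's F statistic. Black circles are from all 6 libraries and orange diamonds from the fit without young replicate 1. Most genes lie near 0; Atp6v0a1, Atp6v1g2, Ctsb and Lamp2 lie above and Map1lc3a and Gabarapl1 below it in both, while Ctse has the widest error, 3.07 ± 1.56 with all libraries.

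The initiation kinase genes Ulk1, Ulk2, Ulk3, Atg13 and Atg101 all had negative log2 differences with 6 libraries, with a median of -0.31 and none called. Ulk1 is the kinase itself, Atg13 its regulatory partner, and Atg101 a stabiliser of Atg13. Without young replicate 1 the median became 0.03, with 3 positive and 2 negative. Atg13, the highest of them per length at a mean of 18.3 FPKM, had 64.7, 59.6 and 55.9 CPM in old libraries, against 98.0, 64.0 and 53.7 CPM in young libraries. The groups overlapped, and the highest value was that of young replicate 1. The log2 difference was -0.26 ± 0.24 with it and 0.03 without it. Young replicate 1 was 2 times the mean of the other young libraries for Ulk1, 2.68 times for Ulk2 and 1.68 times for Ulk3.

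Atg101 differed from its partners. It had 19.1, 14.7 and 17.3 CPM in old libraries, against 20.6, 21.3 and 28.6 CPM in young libraries. All old libraries were below all young ones, by a small margin. On the log2 scale the difference was -0.47 ± 0.20 with an adjusted p of 0.490, and -0.55 without young replicate 1 with an adjusted p of 0.104, both from edgeR, so it passed neither.

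Among the genes of membrane supply and nucleation, 7 were tested, 2 positive and 5 negative, with a median of -0.10 (0.06 without young replicate 1). Becn1, the Beclin 1 scaffold of the lipid kinase complex, was the highest at 68.7 FPKM. It had 143, 133 and 160 CPM in old libraries, against 125, 136 and 144 CPM in young libraries. The groups overlapped, with a log2 difference of 0.11 ± 0.15. Atg9a, the scramblase of the vesicles that seed the membrane, had 19.9, 17.6 and 14.0 CPM in old libraries, against 53.8, 20.2 and 16.8 CPM in young libraries. Only young replicate 1 was high, at 2.91 times the mean of the other young libraries, and the log2 difference of -0.82 ± 0.44 became -0.11 without it. Atg14, which steers the lipid kinase complex to autophagy, had the same library high, at 2.22 times the other young mean. Wipi2, which reads the lipid mark, lay between 78.9 and 79.3 CPM in old libraries and between 79.2 and 88.5 CPM in young libraries.

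The conjugation genes were at similar levels in both groups, within the spread between libraries. Of 10 tested, 5 were positive and 5 negative, with a median of 0.003 with all libraries and 0.03 without young replicate 1. Their summed level was 403, 391 and 415 CPM in old libraries, against 396, 401 and 398 CPM in young libraries. Atg5, Atg12 and Atg16l1, which form the ligase, had log2 differences of 0.09, -0.05 and -0.04, and Atg7, the activating enzyme, had 0.11. Atg3, the enzyme that passes Atg8 proteins to lipid, was the highest per length at 33.4 FPKM. It had 47.1, 52.6 and 55.4 CPM in old libraries, against 43.3, 52.6 and 56.2 CPM in young libraries, and the ranges overlapped nearly fully. Atg4d, a protease that trims Atg8 proteins, had the smallest p of the class. It had 37.3, 34.3 and 42.6 CPM in old libraries, against 37.6, 35.0 and 28.8 CPM in young libraries. The groups overlapped, with 0.17 ± 0.18 as the log2 difference.

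In the Atg8 family the scarcest gene differed by most. Map1lc3a, which encodes LC3A, had 2.46, 2.21 and 2.4 CPM in old libraries, against 7.47, 4.14 and 4.51 CPM in young libraries. All old libraries lay below all young ones, with young replicate 1 the highest. The means were 2.36 ± 0.13 CPM in old and 5.37 ± 1.82 CPM in young libraries (SD, n = 3 each). The log2 difference was -1.19 ± 0.32 with an adjusted p of 0.190 in edgeR and 0.0286 in DESeq2, and -0.87 without young replicate 1 (adjusted p 0.0876, edgeR). It rests on as few as 41 counts in a library, and its mean level was 3.75 FPKM.

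Gabarapl1 encodes another Atg8 protein. It had 23.4, 18.0 and 19.1 CPM in old libraries, against 19.6, 34.1 and 30.3 CPM in young libraries. Young replicate 1 lay among the old libraries and the other young libraries above all of them. With all libraries the log2 difference was -0.48 ± 0.24 with an adjusted p of 0.585 in edgeR. Without young replicate 1 it was -0.68 ± 0.16 with an adjusted p of 0.0429, which passed.

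The abundant Atg8 genes showed no such separation. Gabarap, the highest of them at 183 FPKM, had 217, 180 and 230 CPM in old libraries, against 222, 192 and 181 CPM in young libraries, with a log2 difference of 0.08 ± 0.17 (0.17 without young replicate 1). Map1lc3b, which encodes LC3B, the usual marker of autophagosomes, averaged 60.8 FPKM and had a log2 difference of -0.29 ± 0.21, or -0.10 without young replicate 1, which was 1.43 times the mean of the other young libraries. Gabarapl2 averaged 54.9 FPKM and had -0.13 ± 0.18 (-0.22 without it). For the family as a whole 1 gene was positive and 4 negative, with a median of -0.29, or -0.22 without young replicate 1.

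Sqstm1, or p62, links ubiquitinated cargo to Atg8 proteins and came after Atp6v0c and Gabarap in abundance at 143 FPKM. It had 291, 279 and 325 CPM in old libraries, against 322, 254 and 276 CPM in young libraries. The groups overlapped, with a log2 difference of 0.07 ± 0.16 (0.17 without young replicate 1). Tfeb was scarce at 5.72 FPKM, with 13.0, 11.8 and 9.95 CPM in old libraries, against 17.2, 11.3 and 11.5 CPM in young libraries. Young replicate 1 was the highest, and the log2 difference was -0.20 ± 0.24 with it and 0.02 without it. These are levels of mRNA and say nothing of where the Tfeb protein was.

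The core of the proton pump was expressed from a single copy of each subunit, for the most part. The ubiquitous genes supplied 99.6% or more of the summed FPKM for the B subunit (Atp6v1b2), the C subunit (Atp6v1c1), the E subunit (Atp6v1e1) and the e subunit (Atp6v0e) in every library. Atp6v0c, the proton-carrying ring protein, was the most abundant member of all at 208 FPKM. It had 235, 205 and 250 CPM in old libraries, against 213, 266 and 260 CPM in young libraries. The groups overlapped, and the log2 difference was -0.10 ± 0.17 (-0.19 without young replicate 1). Atp6v1f, at 128 FPKM the highest of the V1 sector, had 83.1, 61.6 and 79.9 CPM in old libraries, against 73.0, 89.5 and 84.2 CPM in young libraries, also overlapping, at -0.14 ± 0.18 on the log2 scale. Of the 9 tested V1 genes 4 were positive and 5 negative, with a median of -0.05 (-0.13 without young replicate 1). Of the 6 tested V0 genes 4 were positive and 2 negative, with a median of 0.06 (0.12 without it).

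The pump genes whose groups separated were minor copies. Atp6v0a1, an alternative form of the a subunit through which protons pass, had 14.6, 16.0 and 19.9 CPM in old libraries, against 8.86, 10.2 and 7.68 CPM in young libraries. Every old library was above every young one. Means were 16.8 ± 2.76 CPM in old and 8.90 ± 1.24 CPM in young libraries (SD, n = 3 each), and the log2 difference was 0.92 ± 0.21 with an adjusted p of 0.127 in edgeR. Without young replicate 1 it was 0.91 with an adjusted p of 0.0407 (edgeR), and DESeq2 gave an adjusted p of 0.00615 with all libraries, both past the threshold.

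Atp6v1g2, known as the brain form of the G subunit of the stalk, had 10.3, 8.64 and 10 CPM in old libraries, against 4.80, 6.02 and 3.18 CPM in young libraries. The groups were apart here as well, with young replicate 1 between its partners. Its log2 difference was 1.05 ± 0.29 with an adjusted p of 0.201 in edgeR and 0.0255 in DESeq2, and 1.07 without young replicate 1 with an adjusted p of 0.0703 (edgeR). Its gene span overlaps that of Nfkbil1, and since the sources used here give no strand setting for the counting, reads of such pairs may have been divided between them. The same holds for Ctsb with Fdft1, Ctsz with Nelfcd, Lamp2 with LOC115489130, and Gabarapl1 with 1700101I11Rik.

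**Figure D2:**
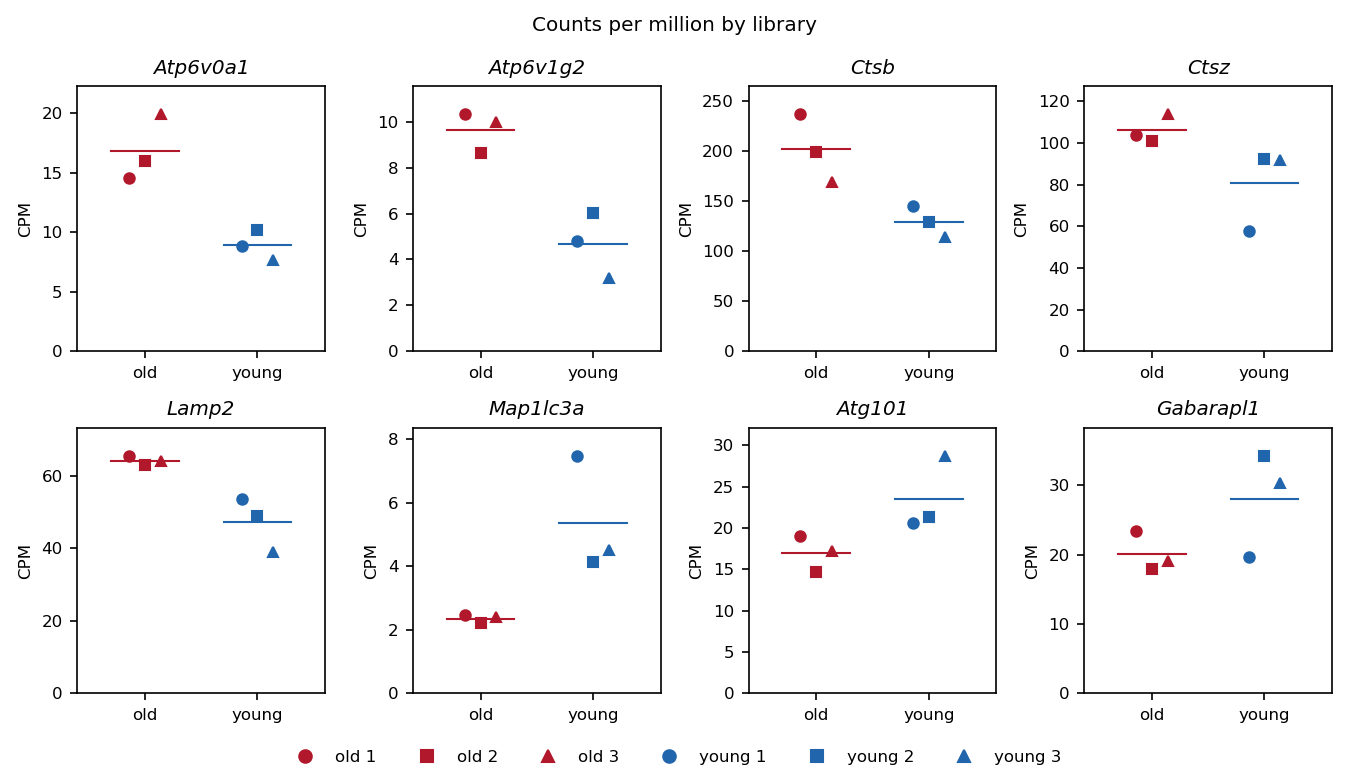
CPM (vertical axis, from 0) of the 8 members whose groups did not overlap or that were called without young replicate 1, with the 3 old libraries (red) left of the 3 young ones (blue), marker shapes for replicate numbers and a line at each mean. Ctsb lies between 169 and 237 CPM in old and between 114 and 145 CPM in young libraries, while for Gabarapl1 young replicate 1, at 19.6 CPM, lies among the old libraries.

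Another minor pump gene was below the filter. Atp6v0d2, the copy of the d subunit known from osteoclasts and macrophages, had 3, 1.84 and 2.79 CPM in old libraries, against 1.10, 0.161 and 0.52 CPM in young libraries. Old libraries were higher in each case, on 34 to 55 counts in old and 3 to 19 in young libraries. With no filter its log2 difference was 2.15 with an adjusted p of 0.138 in edgeR, so it was not called.

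Shares within each subunit, from FPKM summed over its genes, put these genes in proportion. Atp6v0a1 gave 9.02%, 10.5% and 13.8% of the a subunit sum in old libraries, against 5.23%, 7.87% and 6.77% in young libraries. Most of the rest was Atp6v0a2 and Tcirg1, and Tcirg1 is a subunit gene whose symbol the member rule does not match. Atp6v0d2 gave 3.39%, 2.48% and 3.49% of the d subunit in old libraries, against 0.975%, 0.223% and 0.753% in young libraries. Atp6v1g2 gave 11.5%, 11.7% and 11.5% of the G subunit in old libraries, against 7.20%, 7.58% and 3.35% in young libraries. The shares of these genes were higher in every old library than in any young one. Since their CPM already separated the groups, this largely restates that result. The shares of Atp6v0a2 and Tcirg1 overlapped between old and young libraries. No test was made on shares.

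**Figure D3:**
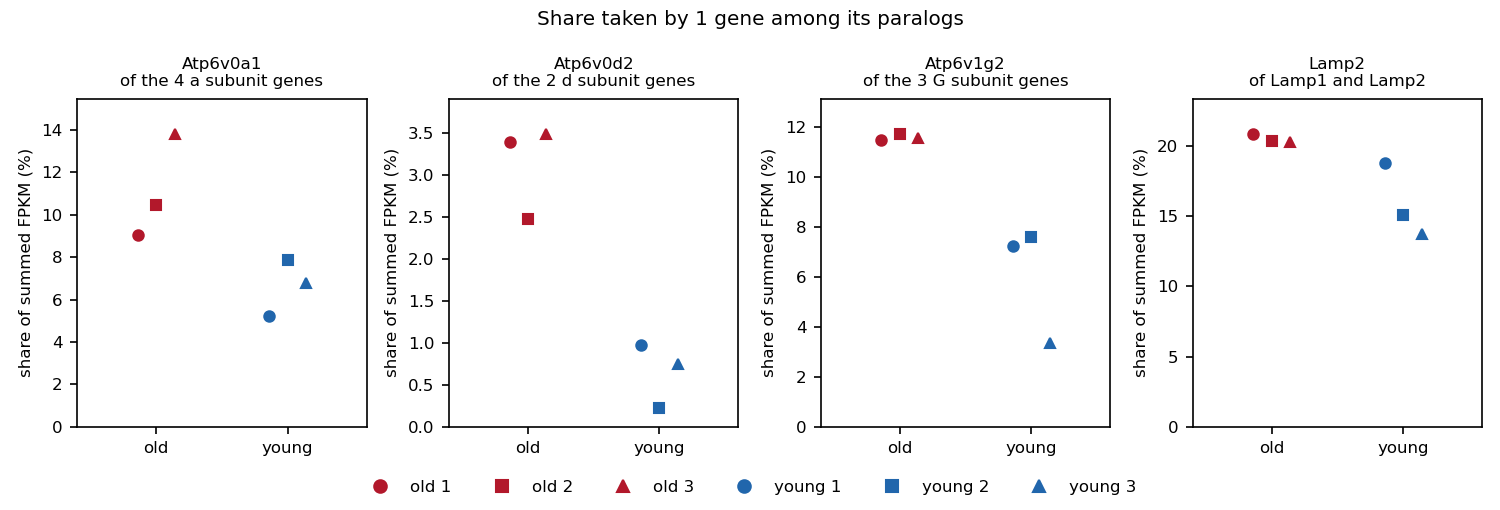
Share of the summed FPKM (vertical axis, percent) held by Atp6v0a1, Atp6v0d2, Atp6v1g2 and Lamp2 among the genes for the same subunit or protein pair, with old libraries (red) left of young libraries (blue). No panel has overlapping groups, and neither did the CPM of the genes shown. The widest gap in proportion is that of Atp6v0d2, at 2.48% or more in old and 0.975% or less in young libraries.

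In young replicate 1 the pump genes and the other members tended to lie on opposite sides. It lay below both other young libraries for 10 of the 15 tested pump genes and above both for 3. For the autophagy genes it lay above both for 19 of 29, and for cathepsins above both for 9 of 11. Over all members it was above both for 32 (56.1%) and below both for 20 (35.1%), against 45.7% and 41.2% of all genes tested. In the pump, Atp6v1d, a subunit of the central shaft, ran the other way, at 1.74 times the mean of the other young libraries. The cause of these differences between young libraries was not tested.

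**Figure D4:**
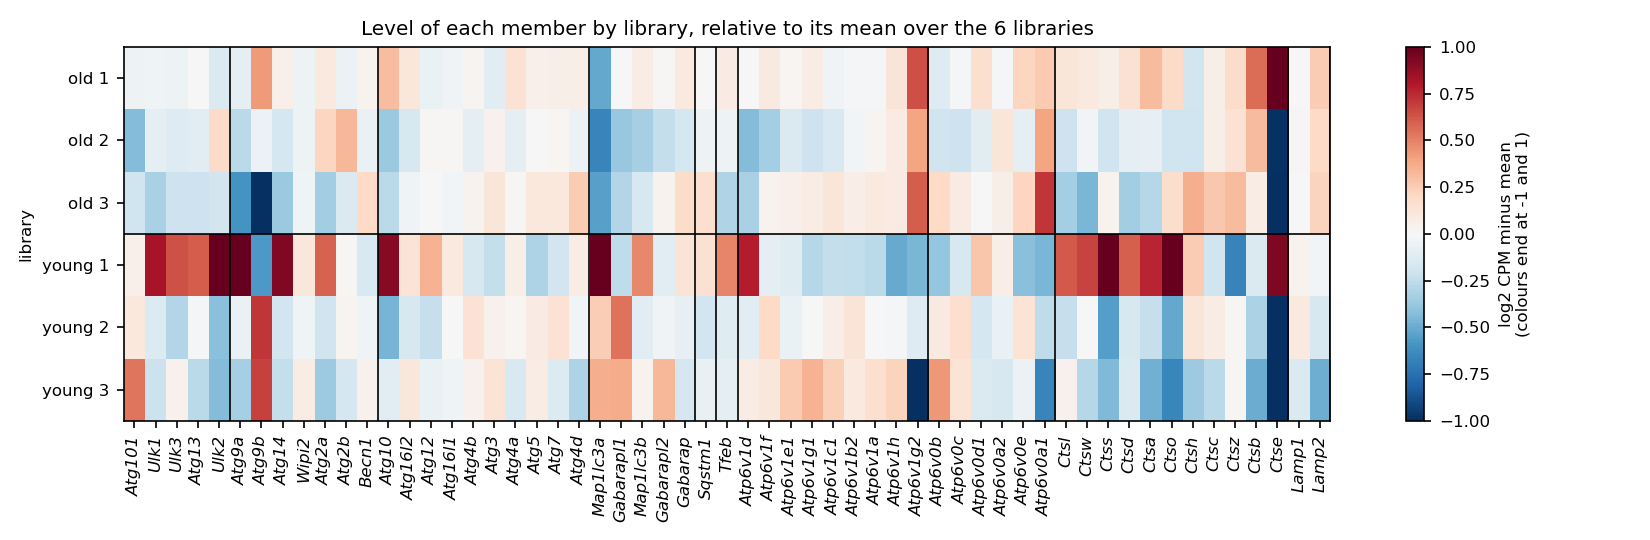
Log2 CPM of each member past the filter (columns, in the order of the plot by role) minus its mean over the 6 libraries, for each library (rows, old above young), with colours ending at -1 and 1. Young replicate 1 is red for Ulk1, Ulk2, Atg9a, Atg14 and most cathepsins and pale blue for most pump genes, in which it lies below both other young libraries for 10 of 15.

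The cathepsins past the filter spanned a wide range of levels. Ctsb, a cysteine protease, averaged 89.8 FPKM, Ctsd, the main aspartic protease of lysosomes, 80.2 FPKM, Ctss 67.0 FPKM and Ctsz 64.9 FPKM, while Ctsl, Ctsw and Ctsh were under 4 FPKM. With all libraries 4 of the 11 tested had positive differences and 7 negative ones, with a median of -0.09. Without young replicate 1, 10 were positive and 1 negative, with a median of 0.22, against 0.01 over all genes. Only Ctsb was called then.

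Ctsb had 237, 200 and 169 CPM in old libraries, against 145, 129 and 114 CPM in young libraries. Every old library exceeded every young one. The means were 202 ± 33.7 CPM in old and 129 ± 15.6 CPM in young libraries (SD, n = 3 each). On the log2 scale old exceeded young by 0.64 ± 0.18 with an adjusted p of 0.223 in edgeR and 0.0373 in DESeq2, and 0.73 ± 0.16 without young replicate 1 with an adjusted p of 0.0295 (edgeR).

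Ctsz, a carboxypeptidase, had 104, 101 and 114 CPM in old libraries, against 57.6, 92.3 and 91.9 CPM in young libraries. The old libraries were all higher, but the gap to young replicates 2 and 3 was small. The log2 difference was 0.40 ± 0.21, and 0.21 without young replicate 1, with adjusted p of 0.607 and 0.293 in edgeR. Ctsc, which activates granule proteases, had a log2 difference of 0.26 ± 0.16.

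Ctss, Ctso, Ctsa and Ctsd were highest in young replicate 1. Ctss, the protease that trims the invariant chain of MHC class II in antigen-presenting cells, had 85.0, 70.8 and 83.4 CPM in old libraries, against 174, 55.5 and 60.1 CPM in young libraries. Young replicate 1 exceeded all old libraries, and the other young libraries lay below all of them. In edgeR's fit the log2 difference was -0.28 ± 0.43 with it and 0.47 ± 0.13 without it, with adjusted p of 0.905 and 0.0690. Ctso was 2.99 times, Ctsa 2.15 times and Ctsd 1.68 times the mean of the other young libraries in that library. The summed B cell markers there were 80.9 CPM, against 35.3 and 36.5 CPM in the other young libraries, and the macrophage markers 28.6 CPM, against 18.9 and 20.6 CPM. The dendritic cell markers were not highest there, at 19.2 CPM against 17.8 and 24.6 CPM. The part of such cells in these cathepsin levels was not tested.

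Ctse, an aspartic protease of immune and epithelial cells outside the usual lysosomal set, rested on single libraries. It had 398, 9.61 and 8.09 CPM in old libraries, against 36.4, 7.58 and 5.60 CPM in young libraries. Old replicate 1 stood far above the others, and young replicate 1 came next. The log2 difference was 3.07 ± 1.56 with an adjusted p of 0.581 in edgeR. It was 4.39 without young replicate 1 and -0.90 without old replicate 1, so its sign depends on that library. Old replicate 1 also had the highest B cell marker sum of the old group, 58.5 CPM, against 29.3 and 39.7 CPM, and the highest neutrophil marker sum of that group, 25.5 CPM, against 4.54 and 7.98 CPM. Its dendritic cell marker sum was not the highest, at 28.6 CPM against 27.7 and 35.2 CPM. The young libraries, with less Ctse than old replicate 1, had higher neutrophil marker sums, of 67.9, 31.3 and 66.0 CPM. Their B cell marker sums were 80.9, 35.3 and 36.5 CPM. The part of such cells in the Ctse level was not tested. With Ctse left out, the cathepsins summed to 856, 731 and 704 CPM in old libraries, against 934, 618 and 576 CPM in young libraries.

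**Figure D5:**
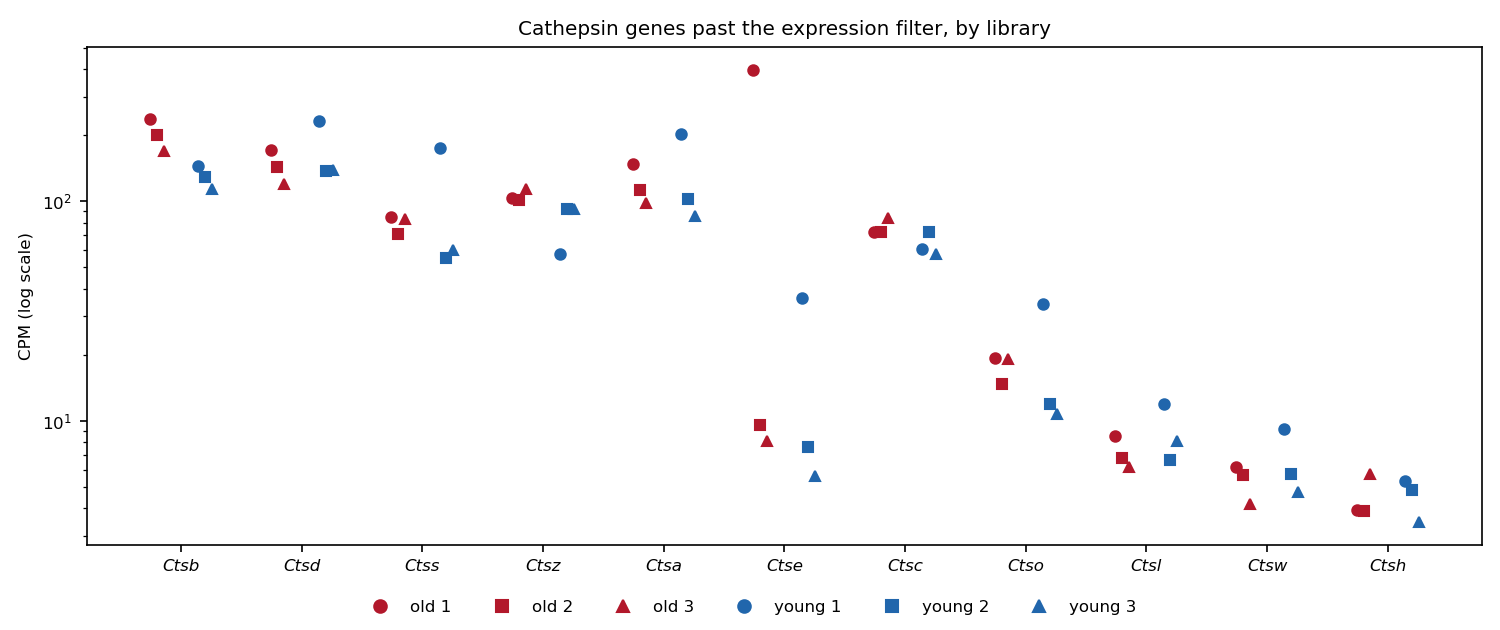
CPM on a log axis for the 11 cathepsin genes past the filter, ordered by mean FPKM, with old libraries (red) left of young libraries (blue) and marker shapes for replicate numbers. Ctse reaches 398 CPM in old replicate 1 only, and Ctss, Ctsa, Ctsd and Ctso are highest in young replicate 1.

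Lamp1 and Lamp2 coat the inside of the lysosomal membrane, and a Lamp2 form also serves chaperone-mediated autophagy. Lamp1 had 186, 188 and 187 CPM in old libraries, against 191, 200 and 169 CPM in young libraries, with a log2 difference of 0.002 ± 0.14. Lamp2 had 65.2, 62.9 and 63.9 CPM in old libraries, against 53.6, 48.8 and 38.9 CPM in young libraries. The old libraries were all above the young ones and close to each other. Means were 64.0 ± 1.18 CPM in old and 47.1 ± 7.51 CPM in young libraries (SD, n = 3 each). This gave a log2 difference of 0.44 ± 0.17 with an adjusted p of 0.380 in edgeR, and 0.55 without young replicate 1 with an adjusted p of 0.0467. Lamp2 made up 20.9%, 20.4% and 20.3% of the summed Lamp1 and Lamp2 FPKM in old libraries, against 18.8%, 15.1% and 13.7% in young libraries.

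Genes that act on or with the members were read from lists in the same fit. These lists were chosen with earlier results of these data known, so counts and medians over them are descriptions and test nothing. A list of protease inhibitors held cystatins, serpins and Ctla2 genes, not all of them known to inhibit cathepsins. Of its genes, 9 were tested and 8 had positive differences, against 4720 of all 10509 genes tested. The median of 0.81 (0.62 without young replicate 1) was the value of Serpinb9. Without young replicate 1 edgeR called 3 of them (33.3%), against 8.84% of all genes. Serpina3f, a serpin protease inhibitor, rose, and it was the only list gene that edgeR called with all libraries past the filter and no replicate block, where DESeq2 called 11. It had 102.7, 42.0 and 70.2 CPM in old libraries, against 5.73, 10.5 and 7.34 CPM in young libraries. Old libraries were higher in each case, with a log2 difference of 3.19 ± 0.39 and an adjusted p of 0.0251 in edgeR. It was called without young replicate 1 (adjusted p 0.00625, edgeR), and in none of the other 5 fits that left out 1 library.

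Its close paralog Serpina3g, known as an inhibitor of cathepsin B, had 58.7, 199.8 and 239 CPM in old libraries, against 27.5, 33.9 and 23.6 CPM in young libraries. These groups did not overlap. How alike the sequences of Serpina3f and Serpina3g are was not examined, and reads that match both may have been divided between them. The log2 difference was 2.55 ± 0.49 with an adjusted p of 0.0784 in edgeR, and 2.53 without young replicate 1 with an adjusted p of 0.0290. Cst7, or cystatin F, a regulator of cathepsin C in cytotoxic cells, averaged 71.8 ± 11.3 CPM in old and 34.2 ± 13.7 CPM in young libraries (SD, n = 3 each). The fit gave 1.07 ± 0.32 on the log2 scale, with an adjusted p of 0.251, and 0.77 without young replicate 1 with an adjusted p of 0.0240, in edgeR. Cst3, cystatin C, and Serpinb9 had 0.58 ± 0.23 and 0.81 ± 0.31 and were not called.

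Of 29 tested genes of mTORC1 and AMPK signalling, which hold back and start autophagy, edgeR called none with all libraries, and the median was 0.00. DESeq2, which called 4.77% of all genes, called Rragd and Sesn2 of these. Without young replicate 1, 3 (10.3%, against 8.84% of all genes) were called, all higher: Rragd, a Rag GTPase, at 0.85 (adjusted p 0.0268), Sesn2, a leucine sensor, at 0.96 (0.0314), and Prkaa1, an AMPK catalytic subunit, at 0.66 (0.0224; 0.19 with all libraries), each from edgeR. Sesn2 had 82.8, 118.9 and 123 CPM in old libraries, against 51.2, 63.9 and 47.3 CPM in young libraries, which did not overlap. Of 10 tested cargo receptors other than Sqstm1, 1 was positive, with a median of -0.17 (-0.09 without young replicate 1). Pink1, the kinase that marks damaged mitochondria, had 33.7, 44.4 and 45.4 CPM in old libraries, against 155, 62.7 and 63.5 CPM in young libraries. The groups did not overlap. With all libraries it was called lower by DESeq2 and not by edgeR, and without young replicate 1 by edgeR, at -0.62 with an adjusted p of 0.0459. DESeq2 also called Calcoco1, a receptor for autophagy of the endoplasmic reticulum.

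The remaining lists of the pathway had no gene called by DESeq2, or by edgeR with or without young replicate 1. They were 14 autophagy partners, with a median of 0.01 (0.11 without that library), 12 fusion genes at -0.06 (0.03), 9 pump partners at 0.08 (0.10), 26 lysosomal hydrolases at -0.07 (0.18), 12 lysosomal membrane partners at 0.01 (0.24), and 8 genes of Tfeb-related and FoxO factors at -0.11 (0.09). Vmp1, which frees membrane contacts of the growing autophagosome, had the smallest p of the partners, with 260, 195 and 237 CPM in old libraries, against 93.6, 169.8 and 159.7 CPM in young libraries. Its groups were apart, with a log2 difference of 0.71 ± 0.25 and an adjusted p of 0.350 in edgeR, and 0.49 without young replicate 1. Glb1, lysosomal beta-galactosidase, had the smallest p of the hydrolases, with 59.5, 50.1 and 53.7 CPM in old libraries, against 39.5, 43.5 and 37.3 CPM in young libraries. The groups did not overlap, and the log2 difference was 0.44 ± 0.15 with an adjusted p of 0.327 in edgeR.

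Members with and without the promoter motif were also set side by side. The 12 tested members with the E-box core had a median log2 difference of 0.01 (0.04 without young replicate 1), and the 32 tested members whose promoters lacked it a median of -0.10 (0.03). Of the genes with the windows shown, Atg3, Atp6v0d1, Atp6v0e and Atp6v1a had 0.03, 0.02, 0.22 and 0.06 (-0.07, 0.17, 0.08 and -0.05 without young replicate 1), and Ctsa and Ctsd had -0.12 and -0.22, which became 0.35 and 0.07 without young replicate 1.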

How the data were processed

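Total RNA of the 6 libraries was sequenced on a HiSeq instrument, per the labels. Per the file headers, the table deposited by the authors lists, for 66712 RefSeq transcripts, an expected count from RSEM and an FPKM in every library. The submitters' processing notes name Bowtie, RSEM and the mouse build GRCm38 (mm10). Tool versions, strandedness and any filter on reads were not given in the sources used here. A model shares out reads that match more than 1 transcript, so values of close paralogs and transcript variants are estimates.

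Both units were then added up by gene for 19977 genes, of which 19830 matched a RefSeq symbol, and counts were rounded. edgeR 4.0.16 (R 4.3.3) was run on genes with a mean of at least 1 FPKM, with TMM factors, no replicate block and Benjamini-Hochberg adjustment over all 10509 genes tested. DESeq2 1.42.0 and limma 3.58.1 were alternatives. The SE of a log2 difference was derived as its absolute value divided by the square root of edgeR's F statistic. edgeR's fit was first tested on simulated counts. Same-numbered libraries correlated in their deviations at 0.223, -0.029 and 0.182, so numbers were not treated as pairs. Values in every library are given for members called in any fit without 1 library, for those with groups that do not overlap, and for the smallest p and the highest FPKM of each role. Members, lists and this rule were chosen with earlier results of these data known. The 14 members with no promoter entry in the table were not searched. No list or score was tested as a set. Figures were drawn with matplotlib 3.10.9.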

Additional observations from a re-analysis of the deposited data

How the results depend on the processing

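Of 278 values of the 20 named members under 14 alternatives, 258 kept their direction and side of the threshold, 8 newly passed it and 12 changed sign, 9 of these when 1 library was left out. DESeq2 gave no p-value for Ctse, so for that value only the direction could be compared. The number of genes called was 203 with no filter, 55 at a mean of at least 5 FPKM, 501 with DESeq2 and 0 to 929 when 1 library was left out, with 0 without old replicate 2 or young replicate 2 and 929 without young replicate 1. Members called were 4 with DESeq2 and 0 to 4 when 1 library was left out, and 0 with RLE factors, robust edgeR, limma, either other filter or the replicate block. List genes called were 2 with no filter, 2 with the replicate block (119 genes in all), 11 with DESeq2 and 0 to 10 when 1 library was left out. When 1 library was left out, the median of the autophagy genes was -0.186 to 0.024 and that of the cathepsins -0.356 (without young replicate 3) to 0.223 (without young replicate 1), and with a mean of at least 5 FPKM the cathepsin median was 0.065. Longer forms of the promoter motif gave 10% and 0.0% of members. Lamp1 turned to -0.007 with RLE factors, -0.009 at 5 FPKM and -0.007 with DESeq2. With 1 library left out, signs changed within -0.44 to 0.03 for Atg13, -0.073 to 0.101 for Atg3, -0.898 to 4.389 for Ctse, -0.003 to 0.174 for Gabarap, -0.075 to 0.051 for Lamp1, -0.005 to 0.174 for Sqstm1 and -0.316 to 0.024 for Tfeb, and the cause was not tested. No label says that library numbers mark pairs. Depth, of 41 counts in a library for Map1lc3a, limits the scarcest members.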

Other observations

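Among the 35 members past the filter with several RefSeq transcripts, the share of the leading transcript in the gene's FPKM overlapped between old and young libraries for all. It stayed within 10 percentage points over the 6 libraries for 7 genes, and moved by over 40 points for 6. The gene level per length depends on such estimates. For Ctsb, the leading transcript held 88.8% of the FPKM and 70.9% of the counts, and for Ctsc it held 49.3% of the FPKM and 84.2% of the counts. For Atp6v0a1, with 7 transcripts, the leading one held 47.2% in old and 59.6% in young libraries on average, within 30.2% to 100% over single libraries.

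Of 20 tested markers of other cells, edgeR called none with all libraries. DESeq2, which called 4.77% of all genes, called 5 of them, namely Camp, Eomes, Ltf, Ngp and Zbtb46. With the replicate block edgeR called Ngp. Without young replicate 1 edgeR called 3 (15%), against 8.84% of all genes. Zbtb46, a transcription factor of dendritic cells, was called higher in old libraries at 1.0 (adjusted p 0.0266, edgeR). It had 14.5, 16.1 and 20.6 CPM in old libraries, against 5.79, 8.87 and 8.20 CPM in young libraries. The other tested dendritic cell markers were not called, with log2 differences of 1.26 for Batf3, 0.11 for Flt3 and -0.18 for Xcr1. Siglech, below the filter, was lower in every old library (0.328 to 0.702 CPM) than in any young one (0.926 to 1.21 CPM). Ltf, lactoferrin of neutrophil granules, was called lower at -2.65 (0.0486, edgeR), with 1.80, 0.756 and 0.164 CPM in old libraries, against 9.38, 4.25 and 7.22 CPM in young libraries. All 5 tested neutrophil markers had negative differences, with a median of -2.18. Eomes, a T-box factor of NK and memory T cells, was called lower at -1.61 (0.00191, edgeR), with 29.7, 37.1 and 30.8 CPM in old libraries, against 47.6, 98.7 and 99.7 CPM in young libraries. Other NK markers were below the filter, and of these Klrb1c was higher in every old library (0.432 to 0.656 CPM) than in any young one (0 to 0.376 CPM).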
